A study of Mus musculus with 2 samples.

Results

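The 9 genes described here encode transcription factors of progenitor, naive and memory-like T cells: Tcf7, Lef1, Bach2, Id3, Myb, Satb1, Bcl6, Foxp1 and Ikzf1. They were taken by name from a table of 27635 mouse genes, and all 9 were present. The table comes from a single capture of T cells from B16F10 melanomas grown under the skin, B16F10 being a melanoma line of C57BL/6 mice. Tumours were taken on day 14 after transplantation. Cells from mice labelled Nr4a KO and from wild-type (WT) mice were marked with hashtag antibodies and pooled, and about 20000 cells were captured. The title of the series gives the deletion as Nr4a1 and Nr4a2; the promoter or cell type in which it acts, the age of the mice and their number are not stated in the labels. CD3+ cells were enriched on magnetic columns after a Percoll step, so cells of other kinds remain in the capture. Neither the names of the barcodes nor the labels say which hashtag carried which genotype. No Nr4a KO library was therefore compared with a WT library, and all values below describe T cell states over a mixture of both genotypes.

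TCF1, the product of Tcf7, and its relative LEF1 bind the same DNA motif and keep CD8 T cells in a self-renewing, stem-like state; in chronic infection and in tumours, TCF1 marks the precursor of the exhausted cells that carry PD-1 (Pdcd1) and later TIM-3 (Havcr2). BACH2 represses effector genes, c-Myb and Foxp1 keep T cells in memory or quiescent states, SATB1 folds chromatin in thymocytes and naive T cells, ID3 blocks E proteins, BCL6 is the factor of follicular helper cells, and Ikaros (Ikzf1) is present through most of the lymphoid lineage. Exhausted and effector cells lower several of these genes as they differentiate.

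Of 12016 barcodes, 11318 had at least 500 genes and at most 25% mitochondrial counts, and 7511 of these were T cells by their CD3 and T cell receptor genes with little signal from macrophage, melanoma, MHC class II or neutrophil genes. A gene was taken as present in a barcode at 5 or more counts. The T cells held 4042 CD8 cells, 967 CD4 cells and 251 gamma delta cells, the last defined by Trdc. The CD8 cells fell into 5 exclusive states: 1169 with Mki67, 726 with Havcr2, 737 with Pdcd1 and no Havcr2, 165 with a Ly49 gene (symbols beginning Klra) and neither, and 1245 with none of these. Depth differed between states, with a median of 62552 counts per barcode in Mki67+ CD8 cells, 33141 in Havcr2+ cells, 27057 in Pdcd1+ Havcr2- cells, 23371 in Klra+ cells and 18375 in cells with none of the 4 markers. Shares of barcodes with a member are therefore given after each barcode was thinned to 10000 counts, unless stated otherwise. Barcodes under 10000 counts were left out of these shares: 683 of 7511 T cells, among them 151 of 1245 CD8 cells with none of the 4 markers, 70 of 669 Foxp3- CD4 cells and 22 of 251 gamma delta cells, but 8 of 726 Havcr2+ and 6 of 1169 Mki67+ CD8 cells. The limit of 5 counts was kept after thinning, so the shares may still differ with depth. Myb went from 31.2% of Mki67+ CD8 barcodes before thinning to 4.64% after it. In CD8 cells with none of the 4 markers it went from 13.3% to 9.69%. The gamma delta gate was not clean: 25.5% of its barcodes had Trac and only 14.7% had Blk, whereas 21.9% had Trgc1. The Klra+ CD8 state also stood apart in its markers. At full depth Cd8b1 was in 56.4% of its barcodes and in 82.2% of CD8 barcodes with none of the 4 markers. Klrb1c, a natural killer cell gene, was in 5.45% and 0.643%, while Trac was in 86.7% and 81.8%. The part of this difference in the results was not tested. A set of 6 hashtags, named A0301 to A0306, could be called in 46.5% of T cells, and they serve as samples of unknown genotype. Intervals cover counting error only, and because the counts may be reads rather than molecules they are narrower than the real error.

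The core of the TCF/LEF motif is in capitals (CTTTGA, and the variant with T as its last letter, CTTTGT, each on either strand). The windows around the annotated starts of Tcf7, Lef1, Bach2 and Myb are shown. They come from RefSeq on GRCm38.p6, run 5′ to 3′ on the gene's strand, and reach from 250 bases before the start to 50 after it. All 9 genes matched the table, and the window listed first was used. The Tcf7 window lies at chr11:52282965-52283264 on the minus strand, that of Lef1 at chr3:131110047-131110346 on the plus strand, that of Bach2 at chr4:32417185-32417484 on the plus strand and that of Myb at chr10:21160935-21161234 on the minus strand. The Bach2 window is inside the gene, which runs from 32238804 to 32586108 in GENCODE vM21.
Tcf7: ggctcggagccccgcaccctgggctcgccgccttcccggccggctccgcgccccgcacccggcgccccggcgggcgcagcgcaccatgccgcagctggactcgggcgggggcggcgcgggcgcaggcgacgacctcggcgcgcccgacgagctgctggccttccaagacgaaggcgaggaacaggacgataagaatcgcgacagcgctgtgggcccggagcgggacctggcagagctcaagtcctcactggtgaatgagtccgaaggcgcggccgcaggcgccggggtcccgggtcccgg
Lef1: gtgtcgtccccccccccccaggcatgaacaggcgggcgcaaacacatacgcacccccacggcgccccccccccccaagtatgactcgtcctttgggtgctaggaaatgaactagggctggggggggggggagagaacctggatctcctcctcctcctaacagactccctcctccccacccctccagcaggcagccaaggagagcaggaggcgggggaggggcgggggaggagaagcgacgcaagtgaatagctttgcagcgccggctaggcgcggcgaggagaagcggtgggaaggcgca
Bach2: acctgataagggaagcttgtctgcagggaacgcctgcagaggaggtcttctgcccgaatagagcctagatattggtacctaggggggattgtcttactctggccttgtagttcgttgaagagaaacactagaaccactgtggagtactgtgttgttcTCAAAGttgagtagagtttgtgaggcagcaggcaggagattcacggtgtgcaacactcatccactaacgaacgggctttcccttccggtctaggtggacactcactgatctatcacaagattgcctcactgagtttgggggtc
Myb: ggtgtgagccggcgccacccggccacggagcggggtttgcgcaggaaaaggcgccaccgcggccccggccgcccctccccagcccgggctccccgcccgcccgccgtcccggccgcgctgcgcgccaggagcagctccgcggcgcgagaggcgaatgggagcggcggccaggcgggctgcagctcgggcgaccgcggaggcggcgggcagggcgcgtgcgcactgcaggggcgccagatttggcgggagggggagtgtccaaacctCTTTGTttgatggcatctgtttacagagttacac
The Tcf7 and Myb windows were rich in G and C, at 76.3% and 75.0% against a median of 52.7% over 27025 windows, and held 45 and 40 CpG pairs. Neither the Tcf7 nor the Lef1 window had either core, the Bach2 window had 1 (TCAAAG, the reverse strand of CTTTGA) and the Myb window 1 (CTTTGT). Over all windows, CTTTGA occurred in 16.2% and CTTTGT in 18.7%, and of the other members Foxp1 had 2 cores and Ikzf1 had 1. These matches describe letters in a window only. In the Tcf7 window an ATG opens a reading frame with no stop codon before the window's end. Much of that window may therefore be coding sequence. Its G and C content and its lack of a core may not describe sequence upstream of the gene.

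Tcf7 was highest in the gamma delta and Ly49+ CD8 cells and lowest in Havcr2+ CD8 and Foxp3+ CD4 cells. It reached 427 CPM (counts of the gene scaled to all counts of the summed barcodes) in gamma delta cells, 413 CPM in Klra+ CD8 cells, 284 CPM in CD8 cells with none of the 4 markers and 224 CPM in Foxp3- CD4 cells. It had 92.7 CPM in Pdcd1+ Havcr2- CD8 cells, 49.3 CPM in Mki67+ CD8 cells, 12.6 CPM in Foxp3+ CD4 cells and 8.87 CPM in Havcr2+ CD8 cells. Macrophage barcodes, at a median depth of 42529.5 counts, had 3.41 CPM and melanoma barcodes, at 153934 counts, had 3.18 CPM. These barcodes serve as a reference only. Trac was present in 4.35% of the macrophage and 3.92% of the melanoma barcodes, and the level of free RNA was not measured. Tcf7 was present in 35.4% of thinned gamma delta barcodes, 37.9% of Klra+ CD8, 23.1% of CD8 with none of the markers and 20.4% of Foxp3- CD4 barcodes. The share was 8.36% in Pdcd1+ Havcr2- CD8, 4.47% in Mki67+ CD8, 0.68% in Foxp3+ CD4 and 0.28% in Havcr2+ CD8 barcodes, against 0.20% in macrophage and 0.10% in melanoma barcodes. At this depth the interval of the share in Havcr2+ cells overlapped those of macrophage and melanoma barcodes. Before thinning, Tcf7 was in 2.07% of Havcr2+ CD8, 1.27% of macrophage and 3.10% of melanoma barcodes. In the order of the 8 states, the ranges over hashtags did not overlap between Klra+ cells (2 hashtags, at 401 and 434 CPM, with 40 and 21 cells) and CD8 cells with none of the markers (6 hashtags), or between Foxp3- CD4 and Pdcd1+ Havcr2- CD8 cells; every other pair of neighbours overlapped.

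Lef1 followed a like order with a shallower floor. Its level was 197 CPM in Klra+ CD8 cells, 154 CPM in gamma delta cells, 129 CPM in CD8 cells with none of the markers and 99.2 CPM in Foxp3- CD4 cells. It was 49.3 CPM in Foxp3+ CD4, 38.9 CPM in Mki67+ CD8, 34.0 CPM in Pdcd1+ Havcr2- CD8 and 19.97 CPM in Havcr2+ CD8 cells, against 2.77 CPM in macrophage and 0.44 CPM in melanoma barcodes. Foxp3+ CD4 cells thus kept a Lef1 level well over that of macrophage and melanoma barcodes, while their Tcf7 was nearer to the level of those barcodes. No neighbouring states of Lef1 were apart in their hashtag ranges.

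**Figure D1:**
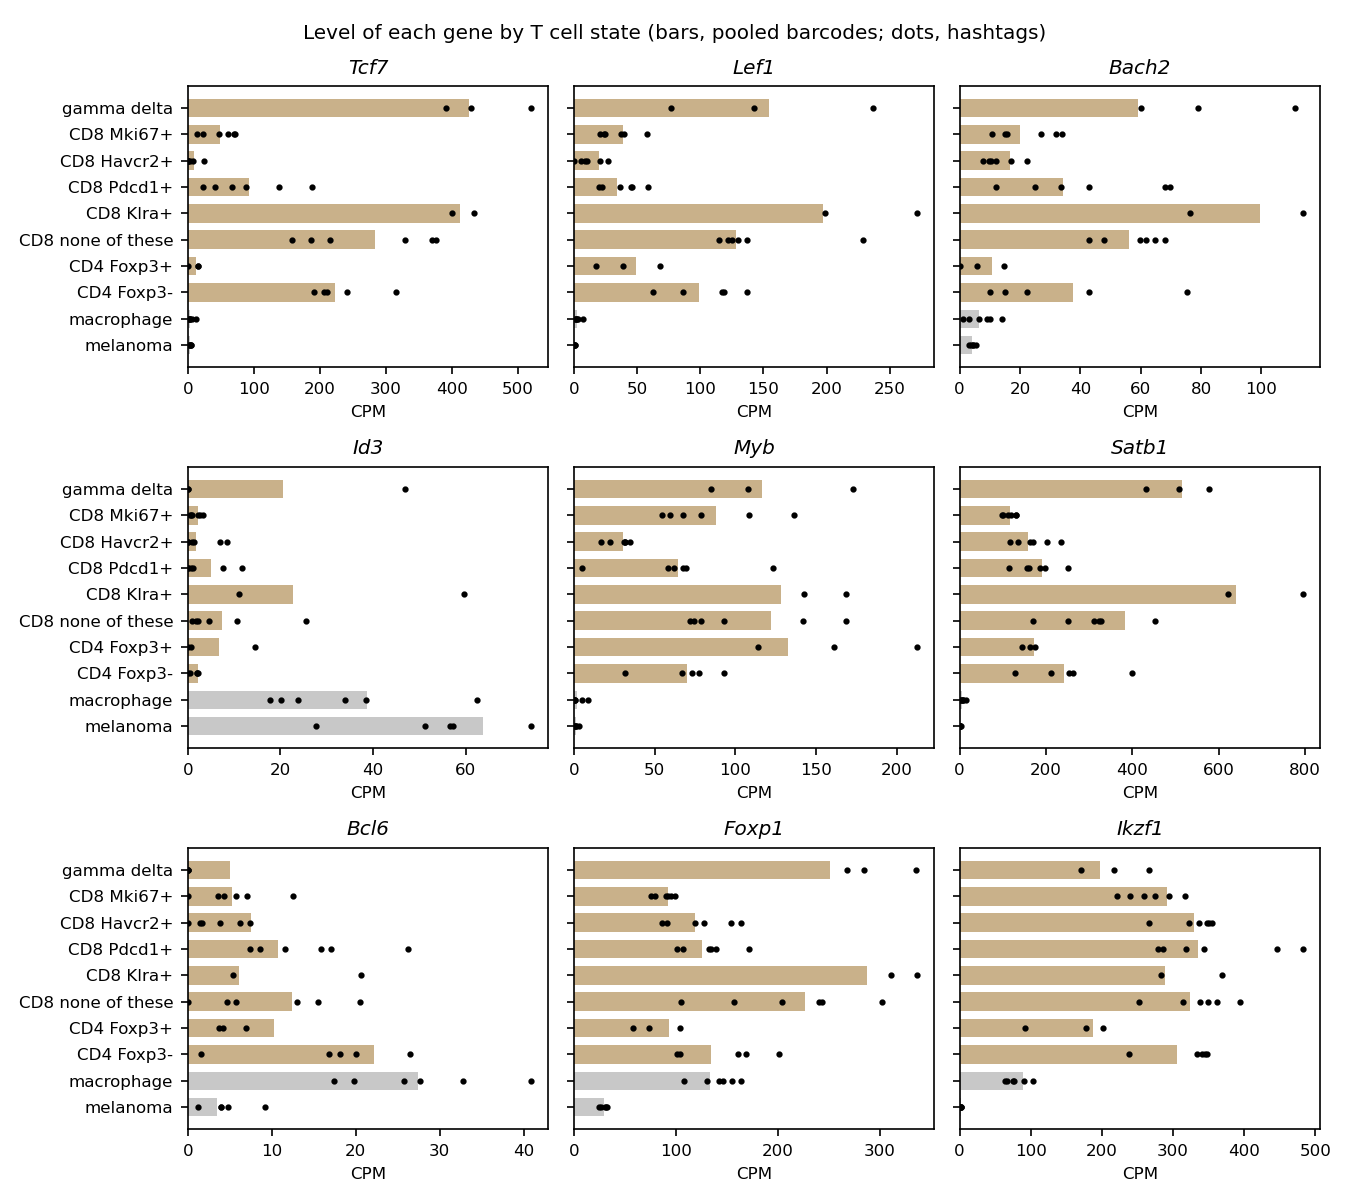
Level of each gene in CPM (horizontal axes, each starting at 0) in 8 exclusive T cell states and in macrophage and melanoma barcodes; bars give pooled barcodes and dots the hashtags with at least 20 cells. Tcf7 has 427 CPM in gamma delta and 8.87 CPM in Havcr2+ CD8 cells, while Id3 is highest in the melanoma barcodes at 63.9 CPM.

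Satb1, Foxp1 and Bach2 shared with Tcf7 the Klra+ cells as their highest CD8 state, but Satb1 and Foxp1 were lowest in cycling cells. Satb1 stood at 640 CPM in Klra+ cells and 382 CPM in CD8 cells with none of the markers, against 192, 158 and 117 CPM in Pdcd1+ Havcr2-, Havcr2+ and Mki67+ cells. Foxp1 ran likewise, with 287 CPM in Klra+ cells, 227 CPM in cells with none of the markers and 92.4 CPM in Mki67+ cells, but macrophages had 134 CPM, so this gene is not one that they lack. Bach2, the sparsest of these genes, had 99.5 CPM in Klra+, 56.1 CPM in cells with none of the markers, 34.3 CPM in Pdcd1+ Havcr2-, 20.1 CPM in Mki67+ and 16.7 CPM in Havcr2+ cells, with 6.51 CPM in macrophages. It was present in at most 8.07% of the thinned barcodes of any of the 8 states.

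Myb and Ikzf1 departed from this order. Myb was as high in Foxp3+ CD4 cells (133 CPM) as in Klra+ CD8 cells (129 CPM), CD8 cells with none of the markers (122 CPM) and gamma delta cells (117 CPM), and their hashtag ranges overlapped. Cycling CD8 cells kept 88.2 CPM of Myb, and the Havcr2+ cells, with 30.5 CPM, were lowest. Ikzf1 was nearly level across the CD8 states, between 289 and 334 CPM, and lower in gamma delta cells (197 CPM) and Foxp3+ CD4 cells (188 CPM). Macrophages had 88.9 CPM of Ikzf1 and melanoma barcodes 1.55 CPM.

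Id3 and Bcl6 were barely measured in T cells. Melanoma barcodes held 61.6% of all Id3 counts and T cells 7.27%; its level was 63.9 CPM in melanoma and 38.8 CPM in macrophage barcodes, above every T cell state. The 2 highest T cell values were 22.6 CPM in Klra+ CD8 and 20.5 CPM in gamma delta cells. Bcl6 was highest among T cells in Foxp3- CD4 cells at 22.2 CPM, under the 27.4 CPM of macrophages, and was present in 1.00% of thinned Foxp3- CD4 barcodes. Neither gene had enough counts per hashtag to be examined in the hashtag contrasts below.

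Contrasts between states were made within hashtags that held 30 or more cells in both arms. The counts of each arm were summed per hashtag, and the log2 ratio was taken after adding 5 counts to each sum. A gene was called when all of those hashtags had the same sign and the median ratio was at least 1 in size. Genes needed a mean of 100 counts per sum. No p-value was computed, because each state is part of the same capture. With that rule, Tcf7 and Lef1 fell in Pdcd1+ against Pdcd1- CD8 cells, and Bach2 joined them in Havcr2+ cells, while the other 4 members examined were not called in either contrast.

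In Pdcd1+ CD8 cells Tcf7 had 58.8, 30.5, 27.4, 22.3, 76.8 and 55.2 CPM in A0301 to A0306, against 222, 219, 106, 104, 266 and 174 CPM in Pdcd1- cells of the same hashtags. All 6 Pdcd1+ values lay below all 6 Pdcd1- values. The median log2 ratio was -1.91, with a range of -2.81 to -1.65, over 2006 Pdcd1+ and 2036 Pdcd1- barcodes. Lef1 had between 23.8 and 40.5 CPM in Pdcd1+ cells, against 62.6 to 126 CPM in Pdcd1- cells, again without overlap, and its median ratio was -1.53. These 2 of 7 examined members compare with 0.882% of 7030 genes called in either direction and 0.569% called lower. Satb1 (-0.93), Bach2 (-0.81) and Foxp1 (-0.76) were below 0 in all 6 hashtags without reaching the threshold, as 15.7% of all genes had the same sign in all hashtags. Myb (-0.41) was above 0 in 2 hashtags and Ikzf1 (-0.18) in 2.

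The Pdcd1 contrast changed in part with depth and with the cells compared. Pdcd1+ barcodes had a median of 42488.5 counts and Pdcd1- barcodes 21788.5. After thinning, with cells classed at full depth, Tcf7 was present in 88 of 1974 Pdcd1+ barcodes (4.46%) and in 339 of 1868 Pdcd1- barcodes (18.1%). When Pdcd1 was itself read after thinning, the pooled level was 65.4 CPM in 925 Pdcd1+ and 156 CPM in 2712 Pdcd1- barcodes, but the median ratio over 5 hashtags shrank to -0.44 and Tcf7 was no longer called. Among cells without Havcr2, Ly49 genes and Mki67, a comparison added after the data were seen, Tcf7 (-1.26) and Lef1 (-1.73) were both still called lower in Pdcd1+ cells over 5 hashtags, where 0.835% of genes were called.

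**Figure D2:**
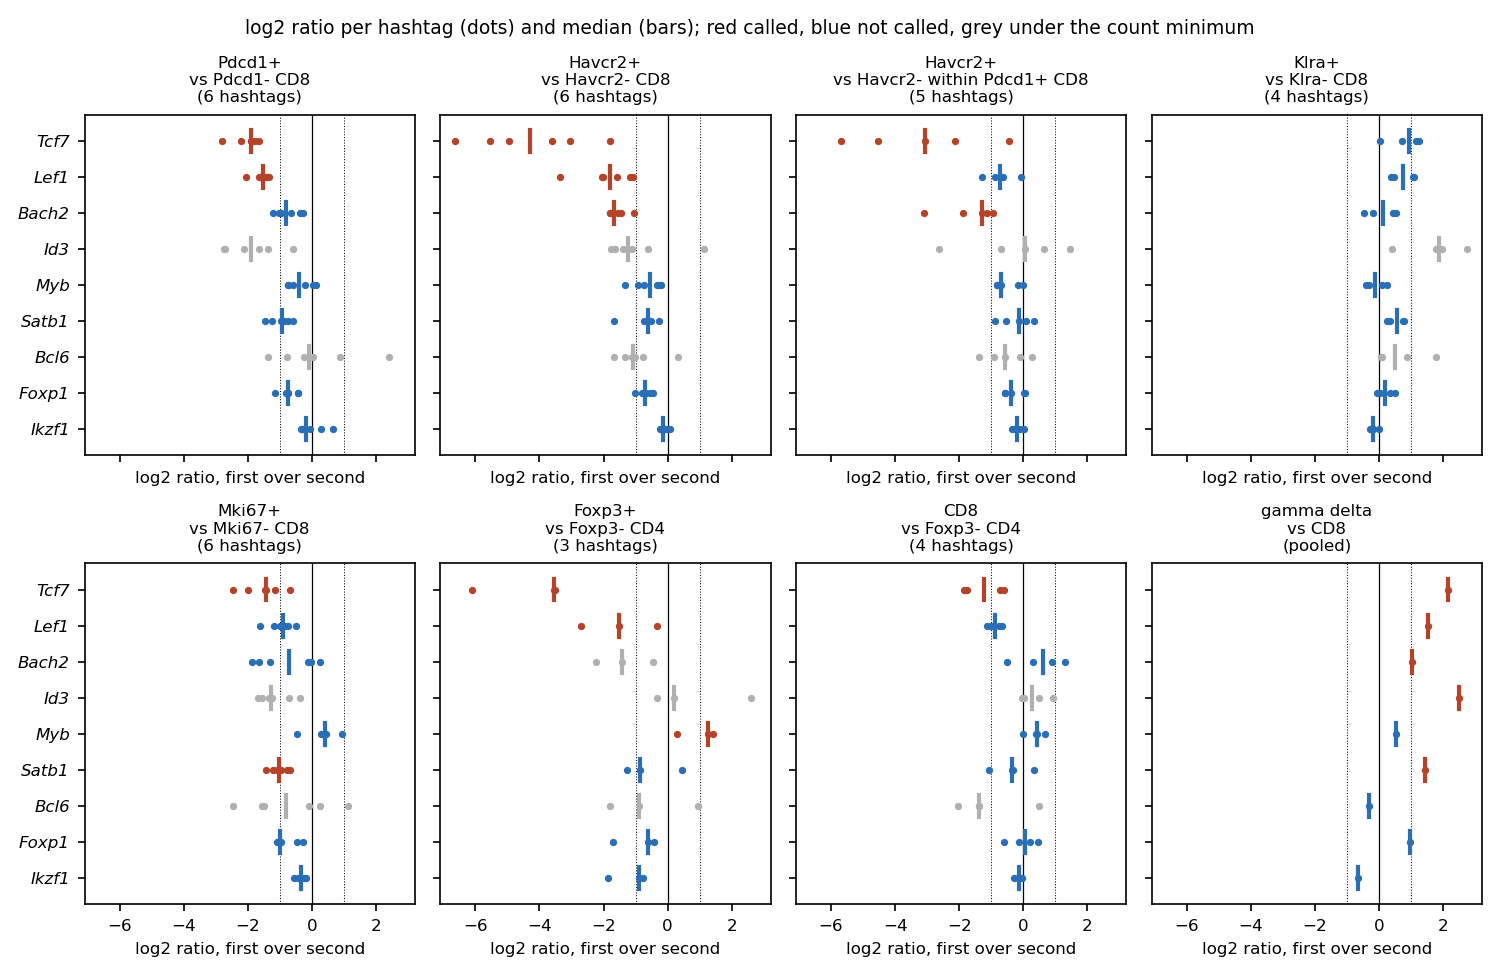
log2 ratio of each gene, first-named arm over second, in 8 contrasts; dots are hashtags, short bars their medians and dotted lines the threshold of 1. Red marks called genes, blue genes not called and grey genes under the count minimum; Tcf7 is called in 7 of the 8 contrasts, higher only in gamma delta cells, and Ikzf1 in none.

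The Havcr2 contrast was deeper for Tcf7. Havcr2+ CD8 cells had 15.6, 4.67, 0.387, 20.3, 1.35 and 17.0 CPM of Tcf7 in A0301 to A0306, against 196, 192, 105, 71.7, 243 and 146 CPM in Havcr2- cells. The groups did not overlap, and A0304 had the highest Havcr2+ and the lowest Havcr2- value. The median log2 ratio was -4.29 and the range -6.63 to -1.79. In A0302, A0303 and A0305 the Havcr2+ sums were 15, 1 and 6 counts, so the size of those ratios depends on the 5 counts added. Lef1 had 25.8, 8.41, 13.1, 14.05, 31.5 and 40.9 CPM in Havcr2+ cells, against 59.1 to 101 CPM in Havcr2- cells, a median ratio of -1.81. Bach2 had a narrow spread, from 12.1 to 19.8 CPM in Havcr2+ cells against 42.1 to 49.5 CPM in Havcr2- cells, and a median ratio of -1.66. The 3 called members of 7 compare with 1.34% of 7030 genes called and 1.07% called lower, over 1247 Havcr2+ and 2795 Havcr2- barcodes. With gates read after thinning, 3 hashtags were left and Tcf7 was still called at -2.89, whereas Lef1 stood at -0.88 and Bach2 at -0.76, neither called, and Myb was called lower at -1.32. Myb was not called at full depth (-0.54), but was called lower without cycling barcodes (-1.65), without the 5% deepest barcodes (-1.10) and with the mean of per-barcode CPM (-1.08).

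Within Pdcd1+ CD8 cells, Havcr2 again separated Tcf7 and Bach2 but not Lef1. Tcf7 had 13.4, 0, 20.02, 1.68 and 19.3 CPM in Havcr2+ cells of A0301, A0303, A0304, A0305 and A0306, against 115, 58.7, 26.7, 157 and 88.4 CPM in Havcr2- cells. The ratio was -0.44 in A0304 and between -5.68 and -2.14 in the other hashtags, with a median of -3.06. Bach2 had 3.21 to 20.7 CPM in Havcr2+ cells, against 32.2 to 47.7 CPM in Havcr2- cells, and a median ratio of -1.30; over all barcodes pooled it was -0.87. Lef1 was at -0.74 and was not called. Here 0.637% of 6122 genes were called and 0.376% were called lower, over 878 Havcr2+ and 1128 Havcr2- barcodes. After thinning, 5 of 878 Pdcd1+ Havcr2+ barcodes (0.569%) and 83 of 1096 Pdcd1+ Havcr2- barcodes (7.57%) held Tcf7, so 83 of the 88 barcodes with Pdcd1 and Tcf7 had no Havcr2.

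Of 13 examined genes listed for progenitor surface and homing, 5 were called lower in Pdcd1+ cells and 8 in Havcr2+ cells, and none was called higher in either. Over all examined genes, 0.569% were called lower in Pdcd1+ cells and 1.07% in Havcr2+ cells. In Havcr2+ cells these included the egress receptor S1pr1 (-2.98), the lymph node homing receptor Ccr7 (-1.46), the chemokine receptor Cxcr3 (-1.54), the integrin Itgb7 (-1.60), the IL-7 receptor Il7r (-1.03), Nsg2 (-2.41) and Dapl1 (-2.18). Among 10 quiescence factors, Klf2, which drives S1pr1, fell by 2.13 and its relative Klf3 fell by 2.16 on the log2 scale. One of the 14 opposing effector and exhaustion factors was called, Eomes at -1.12, and their median was 0.06, against -0.69 for the members and -0.01 for all genes. The corepressor Tle4, which binds TCF1 and LEF1, was the only one of 13 cofactors called, at -1.23. Within Pdcd1+ cells the calls were Dapl1 (-1.75), Cxcr3 (-1.55), Itgb7 (-1.39), Ccr7 (-1.38) and the Ikaros relative Ikzf2 (-1.05). The Nr4a genes were not called in any of these 3 contrasts. The lists were chosen with earlier results of these data known.

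No member was called between Klra+ and Klra- CD8 cells as a whole, where 1.23% of 7664 genes were. Tcf7 had 172, 77.6, 136 and 176 CPM in Klra+ cells of A0301, A0304, A0305 and A0306, against 104, 32.7, 138 and 79.9 CPM in Klra- cells; it was level in A0305 and higher in the other 3. Its median ratio of 0.94 and those of Lef1 (0.76) and Satb1 (0.55) were above 0 in all 4 hashtags but under the threshold; in A0305 the Tcf7 ratio of 0.02 was above 0 only through the added counts. Without A0301, Tcf7 at 1.15 and Lef1 at 1.06 were called, without A0304 only Lef1 (1.06), and without A0305 only Tcf7 (1.15). Klra+ cells had 565 CPM over the 10 macrophage genes, against 207 CPM in Klra- cells, and the part of this signal in the result was not tested. Genes of the lists called here included Klf2 (1.00), higher in Klra+ cells, and Ccr7, which fell by 1.02. Among cells without Pdcd1, Havcr2 and Mki67, compared on pooled barcodes after the data were seen, Id3 alone was called higher, where 8.45% of genes were called.

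Cycling CD8 cells had less Tcf7 and Satb1, and Myb was not called. Tcf7 had 47.5, 69.9, 13.5, 23.0, 71.9 and 60.8 CPM in Mki67+ cells of A0301 to A0306, against 190, 112, 86.6, 64.0, 195 and 135 CPM in Mki67- cells. Each Mki67+ value was below its own hashtag's Mki67- value, although the ranges overlapped, and the median ratio was -1.44. Satb1 had 97.6 to 131 CPM in Mki67+ cells, against 170 to 301.7 CPM in Mki67- cells, with a median ratio of -1.02. Foxp1, at -0.997, was just under the threshold. Myb had 78.5, 54.8, 67.7, 59.9, 109 and 136 CPM in Mki67+ cells, against 109, 39.4, 52.1, 49.5, 80.9 and 70.0 CPM in Mki67- cells; it was higher in 5 of 6 hashtags at a median of 0.40 and was not called. The 2 called members of 7 compare with 5.89% of 7030 genes called and 1.71% called lower, over 1169 Mki67+ and 2873 Mki67- barcodes. Without A0301, A0305 or A0306 Satb1 stood at -0.95 and was not called. Both calls were lost without the 5% deepest T cell barcodes, with Tcf7 at -0.97 and Satb1 at -0.90. The quiescence factors Klf3 (-2.80) and Klf2 (-1.66) and the receptor Il7r (-1.65) fell in Mki67+ cells, and Mybl2, the cell cycle relative of Myb, rose by 1.90.

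The Tcf7 difference with Mki67 was found in 1 of the 4 classes that Pdcd1 and Havcr2 make. Among Pdcd1- Havcr2- CD8 cells Tcf7 had 114 CPM in 257 Mki67+ and 302.8 CPM in 1410 Mki67- barcodes. In Pdcd1+ Havcr2- cells it had 86.8 CPM in 391 Mki67+ and 92.7 CPM in 737 Mki67- barcodes, and in Pdcd1+ Havcr2+ cells 10.1 CPM in 416 Mki67+ and 8.50 CPM in 462 Mki67- barcodes. In Pdcd1- Havcr2+ cells it had 10.2 CPM in 105 Mki67+ and 9.91 CPM in 264 Mki67- barcodes. Within Pdcd1+ Havcr2+ cells, a comparison added after the data were seen, the median Tcf7 ratio over 3 hashtags turned to 1.65: A0301, A0304 and A0306 had 18.5, 19.3 and 25.03 CPM in Mki67+ cells, against 2.48, 21.2 and 4.91 CPM in Mki67- cells. Those Mki67- sums were 8, 54 and 7 counts, under the count minimum, and 3 barcodes held 44.6% of the Tcf7 counts of all Mki67+ cells of that class. None of the members was called there, where 6.54% of 5121 genes were.

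Myb was higher with Mki67 in 3 of the 4 classes. It had 75.0 CPM in Mki67+ and 32.5 CPM in Mki67- cells of the Pdcd1+ Havcr2+ class, and 102 CPM in Mki67+ and 64.5 CPM in Mki67- cells of the Pdcd1+ Havcr2- class. In the Pdcd1- Havcr2+ class it had 66.4 CPM in Mki67+ and 25.2 CPM in Mki67- cells. In the Pdcd1- Havcr2- class, where Tcf7 differed, Myb was also slightly lower with Mki67, at 112 CPM in Mki67+ and 123 CPM in Mki67- cells. By hashtag, Pdcd1+ Havcr2+ cells of A0301, A0304 and A0306 had 66.7, 54.4 and 132 CPM with Mki67, against 33.5, 33.7 and 19.6 CPM without it; all 3 were higher, and the median of 0.94 was under the threshold. Satb1 was lower with Mki67 in all 4 classes, with 105 CPM in Mki67+ and 154 CPM in Mki67- cells of the Pdcd1+ Havcr2+ class and 176 CPM in Mki67+ and 420 CPM in Mki67- cells of the Pdcd1- Havcr2- class. Mki67+ barcodes were deeper in each class, at 79014.5 counts against 37995 in the Pdcd1+ Havcr2+ class.

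**Figure D3:**
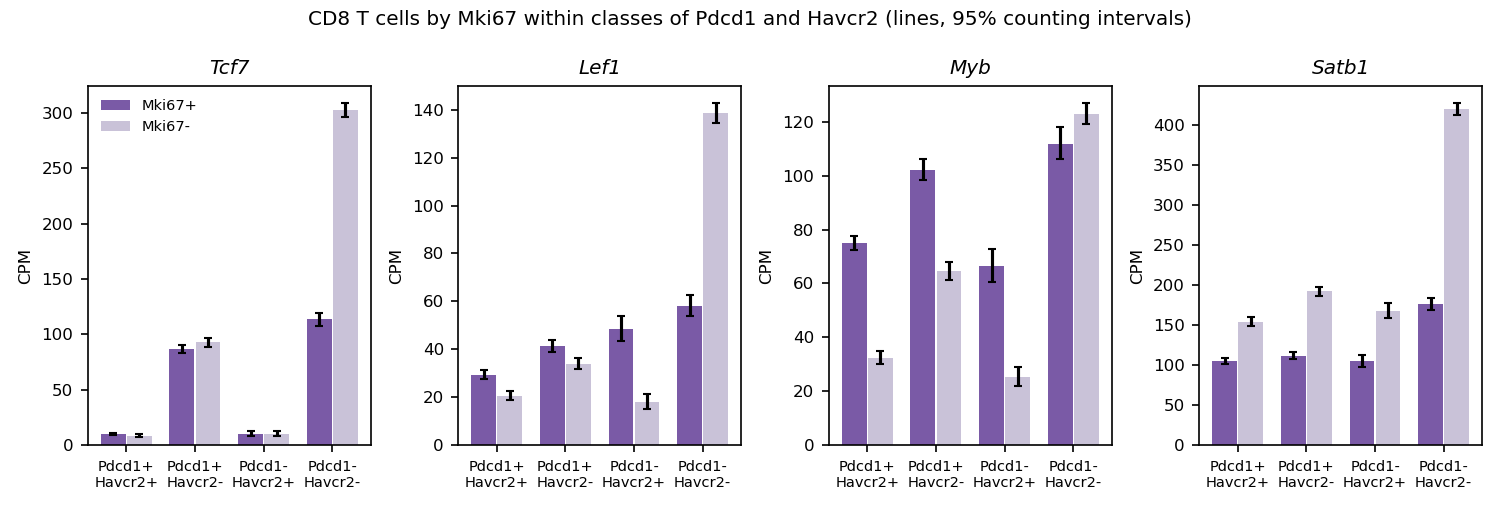
Level of 4 members in CPM (vertical axes from 0) in CD8 cells with Mki67 (dark) and without it (light), within the 4 classes set by Pdcd1 and Havcr2; bars are pooled barcodes and lines 95% intervals for counting error only. Tcf7 differs in the Pdcd1- Havcr2- class (114 CPM with Mki67, 302.8 CPM without it), and Myb is higher with Mki67 in the other 3 classes.

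In CD4 cells, Foxp3, the factor of regulatory T cells, went with low Tcf7 and Lef1 and high Myb. Foxp3+ cells of A0301, A0305 and A0306 had 14.7, 14.7 and 0.768 CPM of Tcf7, against 192, 207 and 316 CPM in Foxp3- cells. The groups were far apart, the median ratio was -3.54, and it stayed at least 1 in size in all 15 alternatives run. Lef1 had 67.9, 38.6 and 17.7 CPM in Foxp3+ cells, against 86.3, 119 and 137 CPM in Foxp3- cells, and its ratio of -1.53 moved to -0.93 without A0306. Myb had 114, 161 and 213 CPM in Foxp3+ cells, against 93.3, 67.1 and 77.7 CPM in Foxp3- cells, a median ratio of 1.24. The 3 called members of 6 examined compare with 6.83% of 3736 genes called, 2.92% higher and 3.91% lower, over 298 Foxp3+ and 669 Foxp3- barcodes. Foxp3+ cells had 2.70 CPM over the 4 fibroblast genes, 1 of which was at 0, against 107.8 CPM in Foxp3- cells with none at 0. Over the 4 MHC class II genes Foxp3+ cells had 286 CPM and Foxp3- cells 152 CPM, and the part of either signal in the result was not tested. Leaving out a hashtag moved the number of called members to between 1 (without A0306) and 5 (without A0301 or without A0305).

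The pooled Myb difference of Foxp3+ cells was larger among cycling barcodes. Foxp3+ cells had 173 CPM of Myb in 115 Mki67+ and 70.0 CPM in 183 Mki67- barcodes, while Foxp3- cells had 79.0 CPM in 138 Mki67+ and 63.9 CPM in 531 Mki67- barcodes. Over pooled barcodes the Myb ratio was 0.91, under the threshold; without cycling barcodes, where too few hashtags were left and barcodes were again pooled, it was 0.10, and after thinning, also pooled, it was 0.50. Over hashtags, Myb was not called without A0305 (0.86) or without A0306 (0.77). Tcf7 was low in Foxp3+ cells on either side, with 6.62 CPM in Mki67+ and 21.8 CPM in Mki67- barcodes. Of the lists, genes that rose in Foxp3+ cells included the Ikaros relatives Ikzf2 (2.45) and Ikzf4 (2.01), the costimulatory receptor Cd27 (1.08) and the factors Prdm1 (1.94), Nfil3 (1.62) and Maf (1.62). The genes Btg2 (-2.06), Nr4a2 (-1.90), Ly6c2 (-1.66), Bhlhe40 (-1.47), S1pr1 (-1.44), Rbpj (-1.13) and Nr4a3 (-1.02) fell.

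CD8 cells as a whole had less Tcf7 than Foxp3- CD4 cells. CD8 cells of A0301, A0303, A0305 and A0306 had 117, 58.9, 138 and 94.7 CPM, against 192, 211, 207 and 316 CPM in Foxp3- CD4 cells, without overlap, and the median ratio was -1.23. This 1 of 7 examined members compares with 4.61% of 7744 genes called and 2.48% called lower. Without A0303 or without A0306 the ratio was -0.72 and Tcf7 was not called. Lef1, at -0.89, was below 0 in all 4 hashtags but under the threshold. It was called lower without A0301, where 5.64% of genes were called, and without A0303, where 5.71% were. Of the lists, Ly6c2 (3.75), the chemokine Xcl1 (2.50), Nr4a2 (1.23) and Ikzf3 (1.17) rose in CD8 cells, and Maf (-2.19), Slamf6 (-1.74), S1pr1 (-1.60), Itgb7 (-1.38), Cxcr3 (-1.12) and Klf3 (-1.08) fell. Among cells without Pdcd1, Havcr2 and Mki67 the Tcf7 ratio was -0.43 over 3 hashtags, and Myb (2.06) was the member called, higher in CD8 cells, where 5.23% of genes were called. CD8 cells had 264 CPM over the 10 macrophage genes and Foxp3- CD4 cells 72.6 CPM. Over the 4 fibroblast genes, CD8 cells had 2.86 CPM and Foxp3- CD4 cells 107.8 CPM. The part of these signals in the result was not tested.

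Gamma delta cells had more of 5 members than CD8 cells, and the ratios were smaller among cells with none of the 4 markers. No 2 hashtags had 30 gamma delta cells, so 251 gamma delta and 4042 CD8 barcodes were pooled and a log2 ratio of 1 was the only criterion; 26.5% of 12681 genes passed it, 15.4% higher and 11.2% lower. Against that wide background, Tcf7 had 427 CPM in gamma delta cells and 95.4 CPM in CD8 cells, a ratio of 2.16. Satb1 had 516 CPM in gamma delta and 191 CPM in CD8 cells (1.44), Lef1 had 154 CPM in gamma delta and 53.4 CPM in CD8 cells (1.54), and Bach2 had 58.9 CPM in gamma delta and 29.4 CPM in CD8 cells (1.03). Id3 had 20.5 CPM in gamma delta and 3.82 CPM in CD8 cells (2.48). That gamma delta level came from 101 counts in 14 of 251 barcodes. In the 3 hashtags with at least 20 gamma delta cells it was 0, 0 and 46.9 CPM. Over the 6 melanoma genes, gamma delta cells had 317 CPM and CD8 cells 224 CPM, and the part of these reads in the Id3 ratio was not tested. Without gamma delta barcodes that held Trac, the same 5 members passed, as did 29.8% of genes. Over the 4 natural killer cell genes, gamma delta cells had 310.9 CPM and CD8 cells 88.2 CPM, none at 0 in either; Klrb1c was present in 11.6% of gamma delta and 0.619% of CD8 barcodes and Ncr1 in 3.19% of gamma delta and 0.0495% of CD8 barcodes. The part of this signal in the result was not tested. Foxp1 (0.98) was just under the threshold, Myb was at 0.53 and Ikzf1 at -0.65. When both sides had no Pdcd1, Havcr2, Ly49 gene or Mki67, the ratios shrank to 0.65 for Tcf7, 0.57 for Lef1, 0.42 for Bach2 and 0.48 for Satb1, and Id3 (1.98) was the member still called, where 17.9% of genes passed. Id3 in T cells is below the level of melanoma and macrophage barcodes. Quiescence factors were called higher for 7 of 10 genes, among them Klf2 (2.04), Tob2 (1.77) and Klf3 (1.39), and progenitor surface genes for 6 of 14, among them Il7r (2.33). Of 14 opposing factors 6 were lower, among them Tox (-1.72) and Prdm1 (-1.60), and 2 were higher, Ikzf2 (1.99) and Maf (1.90).

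Within CD8 barcodes several members were found more often where Tcf7 was present. After thinning, 427 CD8 barcodes held Tcf7 and 3415 did not. Lef1 was present in 18.5% of barcodes with Tcf7 and 3.57% of those without it. Myb was in 17.1% with Tcf7 and 4.13% without, Satb1 in 38.2% with Tcf7 and 15.7% without, and Foxp1 in 23.7% with Tcf7 and 10.2% without. Bach2 was in 4.92% with Tcf7 and 1.82% without. Ikzf1, in contrast, was present in 21.5% of barcodes with Tcf7 and 26.7% of those without it. On each side of Pdcd1 the shares of Lef1, Myb and Satb1 were higher with Tcf7, with intervals that did not overlap. For Satb1 in Pdcd1+ cells the gap was narrow, with a lower bound of 12.6% with Tcf7 and an upper bound of 12.4% without it. Among Pdcd1+ cells, 18.2% of the 88 barcodes with Tcf7 and 2.49% of the 1886 without it held Myb, and Lef1 was in 9.09% of those with Tcf7 and 1.38% of those without. Among Pdcd1- cells, Lef1 was in 20.9% of the 339 barcodes with Tcf7 and 6.28% of the 1529 without it. Bach2 did not differ in this way among Pdcd1+ cells, with 1.14% of barcodes with Tcf7 and 1.33% of those without it, and the Foxp1 intervals overlapped there, at 10.2% with Tcf7 and 6.89% without. These are cells of 1 capture and no test was made over them. The shares may also still differ with depth, since the limit of 5 counts was kept after thinning. Genes other than the members were not compared in this way, so the share of all genes that go with Tcf7 is not known.

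**Figure D4:**
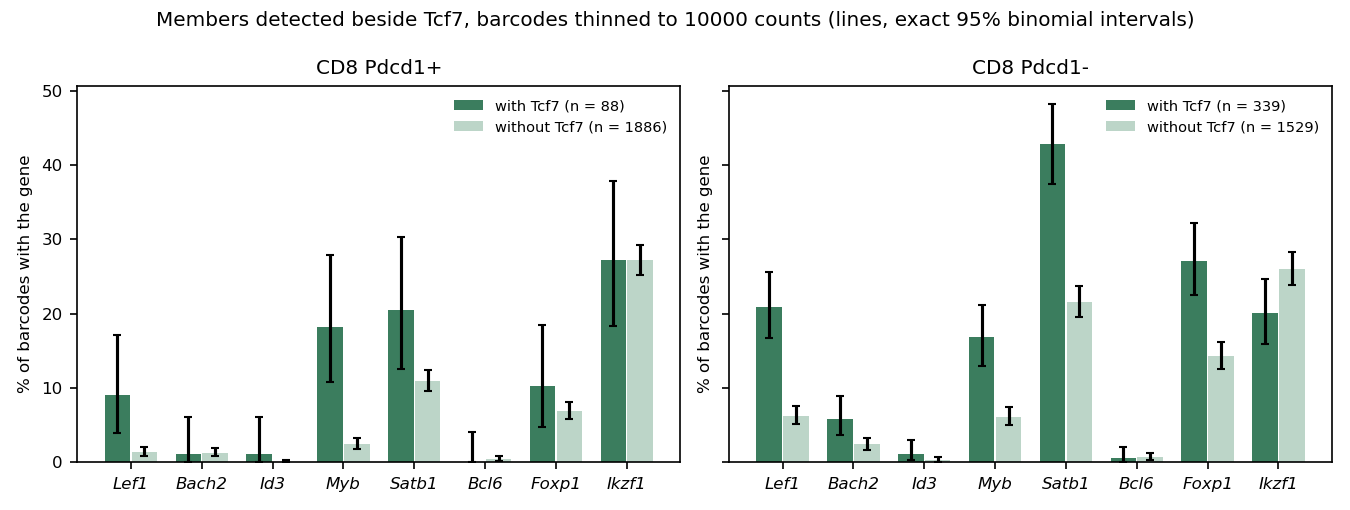
Share of CD8 barcodes, thinned to 10000 counts, that hold each other member at 5 or more counts (vertical axes from 0), among barcodes with Tcf7 (dark) and without it (light), for Pdcd1+ cells on the left and Pdcd1- cells on the right; lines are exact 95% binomial intervals. Myb is in 18.2% of Pdcd1+ barcodes with Tcf7 and 2.49% of those without it, while the Ikzf1 intervals overlap on both sides.

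Among T cell states, the number of members present per thinned barcode was highest where Tcf7 was highest, and lowest in Mki67+ CD8 cells. It averaged 1.68 in Klra+ CD8 cells, 1.36 in gamma delta cells, 1.22 in CD8 cells with none of the markers and 0.963 in Foxp3- CD4 cells. It averaged 0.708 in Pdcd1+ Havcr2- CD8, 0.558 in Havcr2+ CD8, 0.537 in Foxp3+ CD4 and 0.518 in Mki67+ CD8 cells, and 0.196 in macrophage and 0.0499 in melanoma barcodes. At least 3 members were present in 28.0% of Klra+ CD8 barcodes and in 0.418% of Havcr2+ CD8 barcodes. The place of Mki67+ CD8 cells depended on thinning. At full depth, shares of all members but Tcf7 and Id3 were larger in Mki67+ CD8 cells than in those with none of the markers. Ikzf1 was then in 73.9% of Mki67+ CD8 barcodes and 37.9% of those with none of the markers. Tcf7 was in 12.0% and 30.6%.

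Across the 8 states, which share 1 library and differ in depth, the members' levels were compared as log2(CPM + 10). Satb1 and Foxp1 were most alike (Pearson r 0.97), followed by Bach2 and Foxp1 (0.94), Tcf7 and Bach2 (0.93), Lef1 and Satb1 (0.91), Bach2 and Satb1 (0.91) and Tcf7 and Lef1 (0.90). Among 6281 genes, those most like Tcf7 over the 8 states were Rbbp6 (0.97), Nsg2 (0.97) and Polr2a (0.96), and those most like Satb1 were Fam168b, Ripor2 and Tsc22d3. Lef1 was most like Mpv17l, Zfp36l2 and Stk38, Bach2 most like Gramd3, Tapt1 and Rai1, and Foxp1 most like Vezf1, Tsc22d3 and Pabpc1. The nearest genes to Myb were Cand1 (0.93), Iqgap2 and Hmgn1, and those to Ikzf1 were the T cell receptor gene Trbc2 (0.99), Themis and Slc17a6. Id3 was nearest to Klhdc2, R3hdm1 and Luc7l, and Bcl6 to Casp4, Zfand3 and Prkca, both from low counts.

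In GENCODE vM21 on GRCm38 the members lie at chr11:52252371-52283014 (Tcf7), chr3:131110471-131224356 (Lef1), chr4:32238804-32586108 (Bach2), chr4:136143497-136145755 (Id3), chr10:21124935-21160984 (Myb), chr17:51736187-51833290 (Satb1), chr16:23965052-23988852 (Bcl6), chr6:98925338-99522721 (Foxp1) and chr11:11685003-11772926 (Ikzf1). All are protein-coding. Every member but Id3 overlaps at least 1 other annotated gene, such as Gm26551 and A630014C17Rik at Tcf7 and Bach2os at Bach2, and whether the counting used strand is not stated in the labels, so reads from these neighbours cannot be told apart from the members' own.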

How the data were processed

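The gene table and the hashtag table hold counts as deposited by the authors, not normalized; per the labels, read 1 carries a UMI, but whether the counts are molecules or reads is not stated (the median non-zero value was 7, and 16.4% were 1). The capture used a BD Rhapsody system and TAS-Seq, per the labels' protocols. The submitters' processing notes name cutadapt 2.10, Bowtie2 2.3.4.1 and 2.4.2, R 3.5.3 and build GRCm38, with no roles. The gene table sums to 629041564 counts, with 4138 to 892142 per barcode and a median of 25960.5; the hashtag table sums to 21923976, with a median of 12 per kept barcode, and 3496 T cells were called for 1 of 6 hashtags by a likelihood rule.

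Barcodes needed at least 500 genes and at most 25% mitochondrial counts. T cells had at least 2 of 6 T cell genes at 5 counts and under 0.5% of counts on each of the macrophage, melanoma, MHC class II and neutrophil lists. States are gates on marker genes, not clusters. Doublets were handled through that limit and by leaving out the 5% deepest T cell barcodes as an alternative. CPM scales a gene's counts to all counts of the summed barcodes; shares have exact (Clopper-Pearson) binomial and CPM exact Poisson intervals at 95%. Named genes are the members, the 3 genes most alike to each over 8 states with a mean of at least 20 CPM, and list genes called in a contrast, of which 1 is not reported here. Members and lists were chosen with earlier results of these data known. The contrast script was tested on simulated data. The scripts ran in Python 3.11.15 with matplotlib 3.10.9, scipy 1.17.1, pandas 2.3.3 and numpy 2.4.6.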

Additional observations from a re-analysis of the deposited data

Results flagged for a closer look

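The Satb1 ratio between Havcr2+ and Havcr2- CD8 cells was -1.67 in hashtag A0301 and between -0.73 and -0.28 in the other 5; its distance from them was 0.678 of the whole range. It was the only one of 54 sets of hashtag ratios to stand out by that measure, and chance sets apart about 1 in 20.

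T cell barcodes without Cd4, Cd8a, Cd8b1 and Trdc, which enter no comparison, held 7 members above their level in melanoma and macrophage barcodes. Their levels were 354 CPM for Tcf7, 161 CPM for Lef1, 54.0 CPM for Bach2, 131 CPM for Myb, 542 CPM for Satb1, 234 CPM for Foxp1 and 222 CPM for Ikzf1. These 2055 barcodes had a median of 15059 counts, the shallowest of the T cell classes, and Trac was present in 75.9% of them. The rule was applied to the members only, so the share of all genes that would pass it is not known. The class of these barcodes was not tested further.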

How the results depend on the processing

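The 18 member ratios called in the 8 contrasts kept their sign in 293 of 294 alternative values. The exception was Tcf7 between Mki67+ and Mki67- CD8 cells, which turned to 1.65 when both sides had Pdcd1 and Havcr2. That alternative leaves 3 hashtags and falls under the count minimum. Not all of the 294 values were free to change sign. A call needs the same sign in every hashtag, so leaving 1 hashtag out cannot turn the median. For gamma delta cells, pooling all cells repeated the reported values. So did 10 cells per arm for Pdcd1, Havcr2 and Mki67 over all CD8 cells. The number of called members was as follows under the alternatives that moved it by over 1.5 times. The percentage in brackets is the share of all examined genes called. For Pdcd1+ against Pdcd1- CD8 cells (2 called, 0.882%) it was 1 after thinning (0.252%). It was 4 with all cells pooled (3.96%) and 4 with the simple hashtag rule (3.58%). For Havcr2 within Pdcd1+ cells (2 called, 0.637%) it was 1 with a gate of 10 counts (0.588%). It was 1 without cycling barcodes (1.75%) and 1 without the 5% deepest barcodes (0.476%). For Klra+ against Klra- cells (0 called, 1.23%) it was 1 with a limit of 0.1% on other lineages (1.37%). It was 1 without cycling barcodes (5.88%), 1 without the 5% deepest barcodes (1.83%) and 1 with matched gates (8.45%). For Mki67+ against Mki67- cells (2 called, 5.89%) it was 1 with no limit on other lineages (3.88%). It was 1 with no quality filter (5.79%), 0 without the 5% deepest barcodes (4.75%) and 0 with matched gates (6.54%). For Foxp3+ against Foxp3- CD4 cells (3 called, 6.83%) it was 5 with the simple hashtag rule (8.87%). For CD8 against Foxp3- CD4 cells (1 called, 4.61%) it was 0 with a gate of 10 counts (5.90%). It was 2 with no limit on other lineages (6.59%), after thinning (4.81%) and without cycling barcodes (6.03%). It was also 2 with 10 cells per arm (4.20%), with all cells pooled (10.8%) and with the simple hashtag rule (9.42%). For gamma delta against CD8 cells (5 called, 26.5%) it was 3 without cycling barcodes (18.8%). It was 3 with the simple hashtag rule (23.2%) and 1 with matched gates (17.9%). The matched gates were added after the data were seen. The cause was not tested in these cases. Leaving out each hashtag in turn gave 2 to 2 called members for Pdcd1, 3 to 3 for Havcr2, 2 to 2 for Havcr2 within Pdcd1+ cells, 0 to 2 for Klra, 1 to 3 for Mki67, 1 to 5 for Foxp3 and 0 to 2 for CD8 against Foxp3- CD4 cells. The shares of all genes called were then 0.831% to 1.39% for Pdcd1 and 1.39% to 1.77% for Havcr2. They were 1.91% to 2.07% for Klra and 5.83% to 7.10% for Mki67. For Foxp3 the share was 9.45% without A0301 and 9.58% without A0305. Among recomputed CPM values 205 left the counting interval of the reported value and 227 did not, and among shares 205 left it and 299 did not. The hashtag contrasts set both states of the same hashtag against each other; hashtags were matched in no other way, since the labels give no replicate numbers and no genotype for any of them. Depth limits what can be said of Id3 and Bcl6, which had too few counts per hashtag to be examined.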
